A study of Mus musculus with 12 samples.

Results

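The comparison described here set CD73ko mice against CD73floxed mice, both 3 days after transient middle cerebral artery occlusion (tMCAO), and asked how the genotype bears on the brain transcriptome after stroke. It took the 8 of 12 mice of the series whose group label names tMCAO surgery, 4 of each genotype, and the 757 endogenous genes of a 770-gene panel, leaving out 13 housekeeping genes and 14 control probes. Total RNA of whole brain had been hybridised to the barcoded probes of the nCounter Glial Profiling Panel, and each barcode was counted, with no amplification of the RNA. In tMCAO an artery that feeds much of the forebrain hemisphere is blocked, here for 50 min, and reopened, so that an infarct forms and inflames over the following days. The CD73ko tMCAO group comprised 4 mice, the CD73floxed tMCAO group 4 mice, and the CD73flox sham group, used for scale and for the shared estimate of the spread, 4 mice. All were male C57BL/6 mice, sampled at the same time after surgery. In a floxed mouse the target gene carries recombination sites and is intact until a recombinase acts, so these animals are the control genotype. The recombinase, its promoter, the cells that lacked CD73, the age of the mice and whether the genotypes were littermates are not given in the sources used here. The series holds no CD73ko mice after sham surgery. A difference between the genotypes after tMCAO and one already present without surgery thus cannot be told apart.

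CD73, encoded by Nt5e, is an enzyme anchored on the cell surface that converts extracellular AMP to adenosine. It acts downstream of CD39, encoded by Entpd1, which breaks ATP and ADP down to AMP, so that the pair turns ATP leaking from injured cells into adenosine. ATP and ADP act on P2 receptors of microglia and other cells as signals of damage, while adenosine acts on its own receptors, several of which dampen inflammation and neuronal firing. Nt5e is not among the genes that the panel counts, so the deletion itself could not be checked in these mice.

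Total counts over the 770 genes lay between 724655 and 848853 in the 8 tMCAO libraries and 3 of the shams, and the remaining sham library, replicate 4, had 293589. The labels give each library as its own mouse, and the 2 libraries of a group that were most alike still differed beyond counting error (chi-square of 1.73 per degree of freedom). Markers of the cell types of brain were present: all 21 measured neuron genes, all 14 oligodendrocyte and myelin genes, all 6 homeostatic astrocyte genes and 22 of 23 homeostatic microglia genes stood above the background of the negative probes. CD73floxed tMCAO replicate 3 stood apart from its group. It had the lowest normalised count of the 8 tMCAO mice for 209 genes and the highest for 162, more than any other mouse at either end. In whole brain RNA, fewer cells of a type and less RNA per cell cannot be told apart. Probes may also not separate near-identical paralogues, as in the H2, Fcgr, C4a/b and Hspa1a/b genes.

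No gene passed the test between the genotypes. By edgeR's quasi-likelihood test with Benjamini-Hochberg adjustment over all genes, 0 of 757 genes (0%) had an adjusted p under 0.05, and the smallest adjusted p was 0.747. Under the alternative settings and with single mice left out, the smallest adjusted p lay between 0.107 and 0.994. At an unadjusted p under 0.05, 45 genes (5.94% of those tested) were higher and 2 genes (0.264%) were lower in CD73ko mice, 47 (6.21%) in all. The share of genes at that level was thus close to the 5% of the level itself, and nearly all of them were higher. The split depended in part on the scaling: 35 genes were higher and 6 lower with the size factors of DESeq2, 32 and 7 with each library centred on its median, and 28 and 3 scaled to the housekeeping genes. With the shams left out of the fit it was 29 and 18. The 4 CD73ko mice all lay above the 4 CD73floxed mice for 21 genes (2.77%) and all below for 8 genes (1.06%), 29 (3.83%) together.

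The data bounded the size of a genotype effect for most genes. The log2 fold change of CD73ko over CD73floxed mice had a median of 0.03 over all genes. It lay above 0 for 452 of 757 (59.7%, and 52.3% to 54.2% under the other scalings). Refitted on the 712 genes above background it lay above 0 for 51.5%, and on the 612 with a mean count of at least 50 for 50.2%. The range was -0.73 (Cpa3) to 1.12 (Tpsb2), and neither gene was above background in 3 mice of a genotype. The median standard error of the log2 fold change was 0.103. The 95% interval lay within 2-fold either way for 703 genes (92.9%) and within 1.5-fold for 576 genes (76.1%). Of the 54 genes whose interval was wider, 40 stood above background in fewer than 3 mice of a group. Only 13 genes had an estimate of at least 1.5-fold, 12 of them higher in CD73ko mice.

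**Figure D1:**
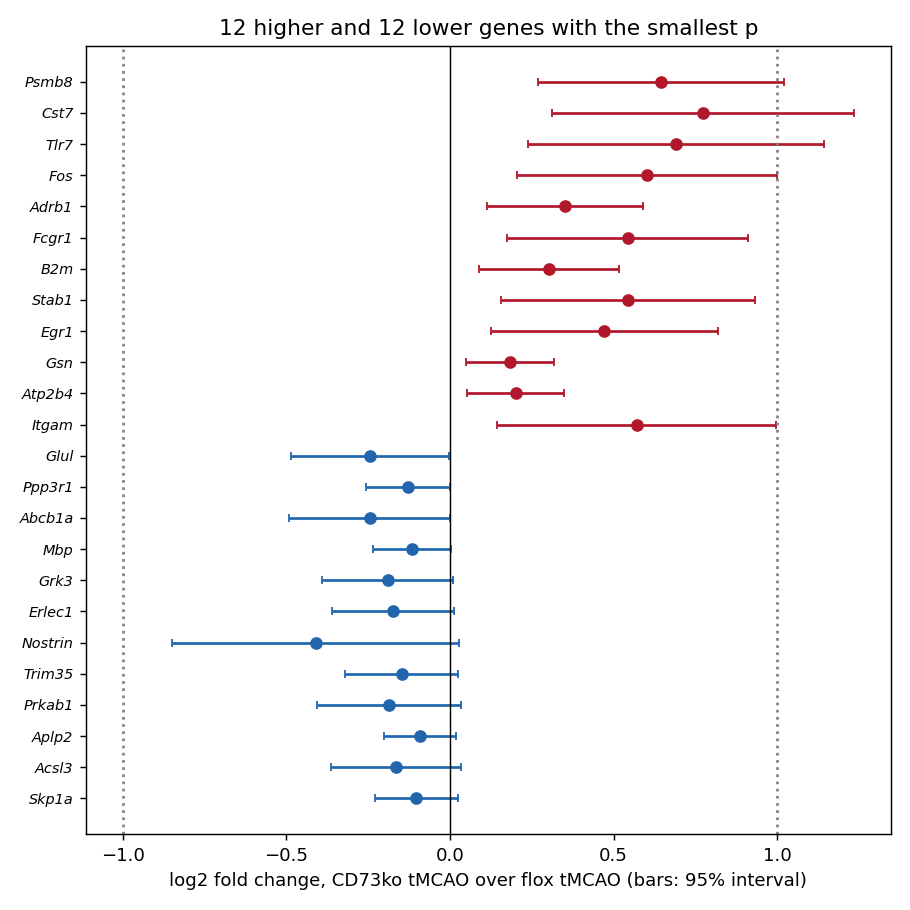
The 12 genes with the smallest p among those higher in CD73ko mice (red) and the 12 among those lower (blue), each with its log2 fold change of CD73ko tMCAO over CD73floxed tMCAO (flox on the axis) as a point and its 95% interval as a bar. Dotted lines mark 2-fold, and the intervals of the red genes lie above 0 while most of the blue ones touch it; no gene passed adjustment over 757 genes.

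The genes nearest to CD73 in its pathway gave estimates close to 0 or intervals that span it. All 12 measured purine genes of 27 sought were above background, and 10 had an estimate above 0, beside 59.7% of all genes. The median log2 fold change of the purine genes was 0.13, and none was among the 47 genes at an unadjusted p under 0.05. Entpd1, the gene of CD39, had 108, 129, 115 and 129 normalised counts in the 4 CD73ko mice, against 123, 99.5, 120.2 and 121 in the 4 CD73floxed mice. The groups overlapped throughout, and the log2 fold change was 0.05 (95% interval -0.19 to 0.29). Entpd2, which encodes a related ATP-hydrolysing enzyme, gave 0.02 (-0.24 to 0.28), and Panx1, the gene of a channel that releases ATP, gave 0.16 (-0.15 to 0.47).

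Of the adenosine receptor genes, Adora1, whose product inhibits neuronal transmission, had 109, 97.9, 102 and 106 normalised counts in CD73ko mice, against 108, 96.5, 124 and 90.4 in CD73floxed mice, a log2 fold change of -0.02 (95% interval -0.26 to 0.23). Adora2b, a receptor that responds when adenosine is plentiful, had 63.7, 47.4, 64.7 and 39.9 in CD73ko mice, against 53.2, 56.6, 32.0 and 33.6 in CD73floxed mice. Within each genotype Adora2b fell into a higher and a lower pair, and the estimate was 0.29 (-0.15 to 0.74). Adora3 stood near background, at 19.7, 14.7, 29.1 and 18.6 in CD73ko and 22.2, 21.5, 8.73 and 13.7 in CD73floxed mice, and its interval reached beyond 2-fold, at 0.31 (-0.42 to 1.04). Adora1 was thus bounded well inside 1.5-fold either way, and Adora3 was not bounded within 2-fold.

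Among the P2 receptor genes the larger estimates were those of microglial receptors. P2ry12, a receptor for ADP that steers microglial processes and marks resident microglia, had 267, 288, 321 and 313 normalised counts in CD73ko mice, against 249, 258, 122 and 305 in CD73floxed mice. CD73floxed replicate 3 lay far below all other tMCAO mice, and the log2 fold change of 0.35 (-0.08 to 0.78) became 0.14 without it. Without CD73floxed replicate 4 that of P2ry12 was 0.50. P2ry6, a receptor for UDP that promotes phagocytosis, gave 0.40 (-0.15 to 0.96) and P2ry13, another ADP receptor, 0.23 (-0.18 to 0.64). Without CD73ko replicate 3 they were 0.21 and 0.09, while P2ry6 was 0.58 without CD73ko replicate 1 and P2ry13 0.37 without CD73floxed replicate 1. P2ry14, a receptor for UDP-sugars, gave 0.09 (-0.38 to 0.56), P2rx7, an ATP-gated channel of microglia, 0.06 (-0.27 to 0.39), and P2ry1, an ADP receptor found on several cell types, -0.04 (-0.30 to 0.22).

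Class I antigen presentation held Psmb8, the gene with the smallest p of the panel. Psmb8, a catalytic subunit of the immunoproteasome that cuts peptides for display, had 61.9, 84.2, 103 and 93.8 normalised counts in CD73ko mice, against 65.6, 50.7, 42.7 and 59.9 in CD73floxed mice and 33.7, 30.8, 36.1 and 25.4 in sham mice. CD73ko replicate 1 lay within the CD73floxed range and the other 3 CD73ko mice lay above it. The log2 fold change was 0.65 (95% interval 0.27 to 1.02), with an adjusted p of 0.747 by edgeR's quasi-likelihood test. With 1 mouse left out, the estimate ran from 0.54 without CD73floxed tMCAO replicate 3 to 0.75 without CD73ko replicate 1, where its adjusted p was 0.107. B2m, which encodes the beta-2-microglobulin chain that all class I molecules share, had 2459.5, 3011, 3196 and 2991 normalised counts in CD73ko mice, against 2484, 2364, 2019 and 2585 in CD73floxed mice. Again replicate 1 of the CD73ko mice fell inside the CD73floxed range and the rest lay above, with a log2 fold change of 0.30 (0.09 to 0.52).

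All 7 measured antigen presentation genes had an estimate above 0, against 59.7% of all genes, with a median of 0.25. Of the 7, 2 were at an unadjusted p under 0.05, against the 5.94% of all genes that were so and higher. H2-T23 and H2-D1, which encode class I heavy chains, gave 0.25 (-0.03 to 0.53) and 0.21 (-0.03 to 0.44). Cd74, the invariant chain of class II molecules, had 123, 191, 241 and 239.6 normalised counts in CD73ko mice, against 267, 209, 70.8 and 165 in CD73floxed mice, where replicate 3 was lowest of all 8. Its estimate of 0.15 (-0.47 to 0.77) spans 0. The mean of the list per mouse, as log2(normalised count + 1) minus the sham mean, was 0.39, 0.83, 1.01 and 0.87 in CD73ko mice, against 0.67, 0.40, 0.25 and 0.59 in CD73floxed mice. CD73ko replicate 1 thus lay with the CD73floxed mice, and the other 3 lay above all of them. Psmb8 and the class I genes are expressed by microglia, infiltrating cells and endothelium alike, and their source in these brains was not measured.

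Genes of the interferon response were also higher by most of these estimates. Of 9 measured genes, 8 had an estimate above 0, the median was 0.29, and 2 were at an unadjusted p under 0.05. Over all genes 59.7% had an estimate above 0, and 5.94% were higher at that p. Iigp1, a GTPase induced by interferon gamma, had 44.1, 68.4, 55.3 and 43.7 normalised counts in CD73ko mice, against 28.4, 37.1, 39.8 and 43.1 in CD73floxed mice, without overlap, and its log2 fold change was 0.51 (95% interval 0.11 to 0.91). The lowest CD73ko and the highest CD73floxed mouse lay close together for Iigp1. Ifit1 and Ifit3, antiviral genes, gave 0.41 (-0.03 to 0.85) and 0.28 (-0.03 to 0.59). The list mean per mouse was 0.47, 0.69, 0.79 and 0.43 in CD73ko mice, against 0.38, 0.38, 0.15 and 0.38 in CD73floxed mice, where replicate 3 was lowest. All 4 CD73ko mice lay above all 4 CD73floxed mice on this mean, but the lowest CD73ko mouse (0.43) was close to the highest CD73floxed mouse (0.38). Of the 29 lists with at least 3 members, no other had list means that separated the genotypes. Among single genes, 21 of 757 (2.77%) lay wholly higher in CD73ko mice.

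The promoters of 3 of these genes are shown because interferons act on this group of genes through short DNA elements: the interferon-stimulated response element, bound by IRF-containing complexes, and the gamma-activated sequence, which answers to interferon gamma. The cores searched, on both strands, were GAAANNGAAA for the first and TTCNNNGAA for the second, in 250 bases before to 50 bases after the start of each gene. The sequences are those of RefSeq on GRCm38.p6, written 5′ to 3′ on the strand of the gene, with each match in capitals. The windows are chr17:34197945-34198244 (plus strand) for Psmb8, chr2:122147437-122147736 (plus strand) for B2m and chr19:34640639-34640938 (plus strand) for Ifit1.
Psmb8: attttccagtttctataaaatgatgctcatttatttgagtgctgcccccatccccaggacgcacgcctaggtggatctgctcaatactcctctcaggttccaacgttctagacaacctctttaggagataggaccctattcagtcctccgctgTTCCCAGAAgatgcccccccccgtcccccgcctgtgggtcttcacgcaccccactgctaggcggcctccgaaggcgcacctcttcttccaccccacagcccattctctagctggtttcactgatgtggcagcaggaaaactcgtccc
B2m: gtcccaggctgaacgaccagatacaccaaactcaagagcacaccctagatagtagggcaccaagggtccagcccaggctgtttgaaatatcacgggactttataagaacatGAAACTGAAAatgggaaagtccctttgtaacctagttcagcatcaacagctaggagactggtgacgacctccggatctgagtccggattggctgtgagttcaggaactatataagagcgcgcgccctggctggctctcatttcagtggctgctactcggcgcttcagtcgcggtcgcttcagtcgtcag
Ifit1: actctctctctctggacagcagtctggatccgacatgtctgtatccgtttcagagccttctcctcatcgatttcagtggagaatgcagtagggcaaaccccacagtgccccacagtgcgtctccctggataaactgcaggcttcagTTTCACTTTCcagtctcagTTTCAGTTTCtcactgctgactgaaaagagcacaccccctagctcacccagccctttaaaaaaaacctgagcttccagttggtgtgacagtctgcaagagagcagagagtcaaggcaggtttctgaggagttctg
The Psmb8 match is to TTCNNNGAA and begins at base -97 from the start, that of B2m to GAAANNGAAA at -139, and those of Ifit1 to GAAANNGAAA, read on the other strand, at -104 and -85. Of genes with a promoter, 3.99% of the 27025 in RefSeq and 7.35% of the 558 on the panel held the GAAANNGAAA core in at least 1 promoter. For TTCNNNGAA it was 9.55% and 8.60%. Of the antigen presentation genes with a promoter, 2 of 5 held the first and 1 of 5 the second, and of the interferon genes 4 of 6 and 2 of 6. The 3 promoters shown are all from genes with a match, while the window of H2-D1 held neither core. A match says only that these letters are present, and binding was not measured here.

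Receptors through which microglia and macrophages sense microbes, debris and antibody all had estimates above 0: 9 of 9, against 59.7% of all genes, with a median of 0.36. Of the 9, 4 were at an unadjusted p under 0.05, where 5.94% of all genes were so and higher. Tlr7, an endosomal receptor for single-stranded RNA, had 26.2, 40.0, 41.2 and 38.1 normalised counts in CD73ko mice, against 22.2, 20.5, 29.1 and 17.9 in CD73floxed mice. CD73ko replicate 1 and CD73floxed replicate 3 overlapped, the remaining mice were separated, and the log2 fold change was 0.69 (0.24 to 1.14). Fcgr1, the high-affinity receptor for IgG, had 113, 157, 168 and 155 normalised counts in CD73ko mice, against 114, 97.5, 67.9 and 127 in CD73floxed mice, with a log2 fold change of 0.54 (95% interval 0.18 to 0.91). Fcgr4, a lower-affinity IgG receptor, had 29.1, 53.7, 76.8 and 80.8 in CD73ko mice, against 42.6, 30.2, 47.5 and 37.8 in CD73floxed mice, so that CD73ko replicate 1 was the lowest of the 8 and the others the highest. Its estimate was 0.60 (0.02 to 1.19). The list mean per mouse was 1.10, 1.48, 1.78 and 1.70 in CD73ko mice, against 1.22, 1.08, 1.02 and 1.25 in CD73floxed mice, and its median log2 fold change ran from 0.28 without CD73floxed replicate 3 to 0.56 without CD73floxed replicate 4.

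Genes listed for homeostatic microglia had an estimate above 0 for 22 of 23 members, against 59.7% of all genes, with a median of 0.28. Trem2 is also in the disease-associated list, Itgam in the complement list and Fcrls in the innate receptor list. The members are thus not confined to the homeostatic state, and the counts of these lists are not independent. At an unadjusted p under 0.05 were 5 of 23, beside 5.94% of all genes that were so and higher. Itgam, which encodes the CD11b chain of complement receptor 3, had 138, 183, 205 and 249 normalised counts in CD73ko mice, against 143, 141, 76.6 and 162 in CD73floxed mice. Fcrls, an Fc receptor-like gene of mouse microglia, had 403, 438, 607 and 663 in CD73ko mice, against 404, 421, 249 and 477 in CD73floxed mice. For both genes CD73floxed replicate 3 was the lowest mouse and CD73ko replicate 4 the highest, and the log2 fold changes were 0.57 (0.14 to 1.00) and 0.45 (0.05 to 0.84). Trem2, a lipid-sensing receptor needed for the phagocytic state, gave 0.45 (0.05 to 0.86). Gpr84, a receptor for medium-chain fatty acids, gave 0.77 (0.19 to 1.36) and stood above background in 4 of 4 CD73ko mice and 1 of 4 CD73floxed mice.

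The list mean of homeostatic microglia genes was 0.56, 0.76, 1.00 and 0.92 in CD73ko mice, against 0.68, 0.39, 0.18 and 0.75 in CD73floxed mice. CD73floxed replicate 3 was the lowest and held the lowest CD73floxed count of 18 of the 23 genes, against 280 of all 757. Without it the median log2 fold change was 0.14. The distance of this list from 0 thus came in large part from that mouse. Among markers of blood-borne and perivascular macrophages, 7 of 8 measured genes also had an estimate above 0, beside 59.7% of all genes. The median of these 8 was 0.23, and it was 0.02 without CD73ko replicate 4 and 0.38 without replicate 1. Their summed level was 618 to 1770.2 normalised counts in CD73ko mice, against 961 to 1164 in CD73floxed tMCAO mice and 207 to 249 in CD73flox sham mice. None of the 8 was at 0, and Fpr1 alone was above background in fewer than 3 CD73floxed tMCAO mice, in 1 of 4. The part of these cells in the microglial values was not tested.

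Genes of the disease-associated state, which microglia take on around injured tissue, had an estimate above 0 for 24 of 25 members. The median was 0.19, and 4 of 25 were at an unadjusted p under 0.05, beside the same 59.7% and 5.94% of all genes. B2m and H2-D1 are also in the antigen presentation list, and Trem2 in the homeostatic microglia list. Cst7, the gene of cystatin F, which restrains cathepsins in the lysosome, had 53.4, 69.5, 80.6 and 119 normalised counts in CD73ko mice, against 48.8, 45.8, 40.7 and 53.6 in CD73floxed mice and 3.55, 7.46, 5.41 and 7.61 in sham mice. CD73ko replicate 1 was level with the highest CD73floxed mouse, replicate 4 stood at more than any other mouse, and the log2 fold change was 0.77 (95% interval 0.31 to 1.23). The estimate was 0.52 without replicate 4 and 0.90 without replicate 1, where its adjusted p was 0.107. Cd9, a tetraspanin of activated microglia, had 790.2, 947, 1236 and 1283 in CD73ko mice, against 899, 845, 619.5 and 988 in CD73floxed mice, with 0.35 (0.00085 to 0.69). Spp1, the gene of osteopontin, a secreted matrix protein, had 1879, 3418, 7087 and 7633 normalised counts in CD73ko mice, against 3939, 4035, 3251 and 3664 in CD73floxed mice. The CD73floxed mice lay close together while the CD73ko mice lay on both sides of them, with replicate 1 lowest and replicates 3 and 4 highest of the 8, and the estimate of 0.43 (-0.21 to 1.07) spans 0.

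Phagocytosis and lysosome genes had that order of mice too, though the list shares Cd68 and Ctsb, among others, with the disease-associated list. The order is thus not an independent repeat. Of 16 members 13 had an estimate above 0, the median was 0.20, and 1 was at an unadjusted p under 0.05. That 6.25% was close to the 5.94% of all genes that were so and higher, and 59.7% of all genes had an estimate above 0. The median was 0.07 without CD73ko replicate 4, 0.13 without replicate 3 and 0.25 without replicate 1. Grn, the gene of progranulin, a regulator of lysosomes, had 668, 781, 927 and 917 normalised counts in CD73ko mice, against 631, 614, 530.3 and 818 in CD73floxed mice, a log2 fold change of 0.35 (95% interval 0.08 to 0.61). The lowest CD73ko count of Grn lay between those of CD73floxed replicates 1 and 4. Cd68, a lysosomal glycoprotein of phagocytes, had 349.6, 512, 640.1 and 708 in CD73ko mice, against 452, 398, 384 and 507 in CD73floxed mice, with 0.34 (-0.01 to 0.70). Msr1, a scavenger receptor, gave 0.50 (-0.07 to 1.07) and Ctsb, the gene of cathepsin B, 0.20 (-0.06 to 0.45). CD73ko replicate 1 was the lowest CD73ko mouse for 13 of these 16 genes and for 22 of the 25 disease-associated genes, against 278 of all 757 genes. The list mean of macrophage genes kept the order, at 1.11, 1.57, 2.07 and 2.25 in CD73ko mice, against 1.61, 1.45, 1.61 and 1.38 in CD73floxed mice, and its part in the phagocyte values was not tested.

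Complement genes, which tag debris and synapses for removal, had an estimate above 0 for 11 of 12 members, with a median of 0.23. At an unadjusted p under 0.05 was 1 of 12, Itgam, which is also in the homeostatic microglia list. Over all genes 59.7% had an estimate above 0, and 5.94% were higher at that p. C1qa and C1qc, subunits of the initiating complex, gave 0.25 (-0.04 to 0.54) and 0.23 (-0.09 to 0.55), and C4a/b, a central component, 0.31 (-0.02 to 0.64). C1qa had 927, 1294, 1444 and 1642 normalised counts in CD73ko mice, against 1095, 981, 1063 and 1329 in CD73floxed mice, so that CD73ko replicate 1 was the lowest and replicates 3 and 4 the highest of the 8. The complement median was 0.14 without CD73ko replicate 3, 0.16 without replicate 4 and 0.35 without replicate 1. That of the disease-associated list was 0.10, 0.11 and 0.30 without the same mice, so both medians moved with single CD73ko mice in either direction.

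Among genes of macrophages from blood and vessel borders, Stab1, a scavenger receptor of perivascular macrophages and sinusoidal endothelium, had 74.0, 77.9, 131 and 111 normalised counts in CD73ko mice, against 67.4, 71.2, 60.1 and 72.5 in CD73floxed mice. The groups did not overlap, though CD73ko replicates 1 and 2 lay only just above the highest CD73floxed mouse, and the log2 fold change was 0.54 (95% interval 0.15 to 0.93). Fpr1, a receptor for formyl peptides on phagocytes, also did not overlap, at 14.1, 13.7, 15.9 and 19.5 in CD73ko and 10.6, 4.88, 12.6 and 9.46 in CD73floxed mice, counts at the edge of background. Lyz2, a lysozyme of myeloid cells, had 145, 346, 504 and 637 in CD73ko mice, against 417, 399, 231 and 326 in CD73floxed mice, with 0.25 (-0.43 to 0.93). Cd163, a haemoglobin scavenger receptor of perivascular macrophages, gave 0.30 (-0.26 to 0.85). The only measured neutrophil marker, Csf3r, gave 0.22 (-0.29 to 0.73).

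**Figure D2:**
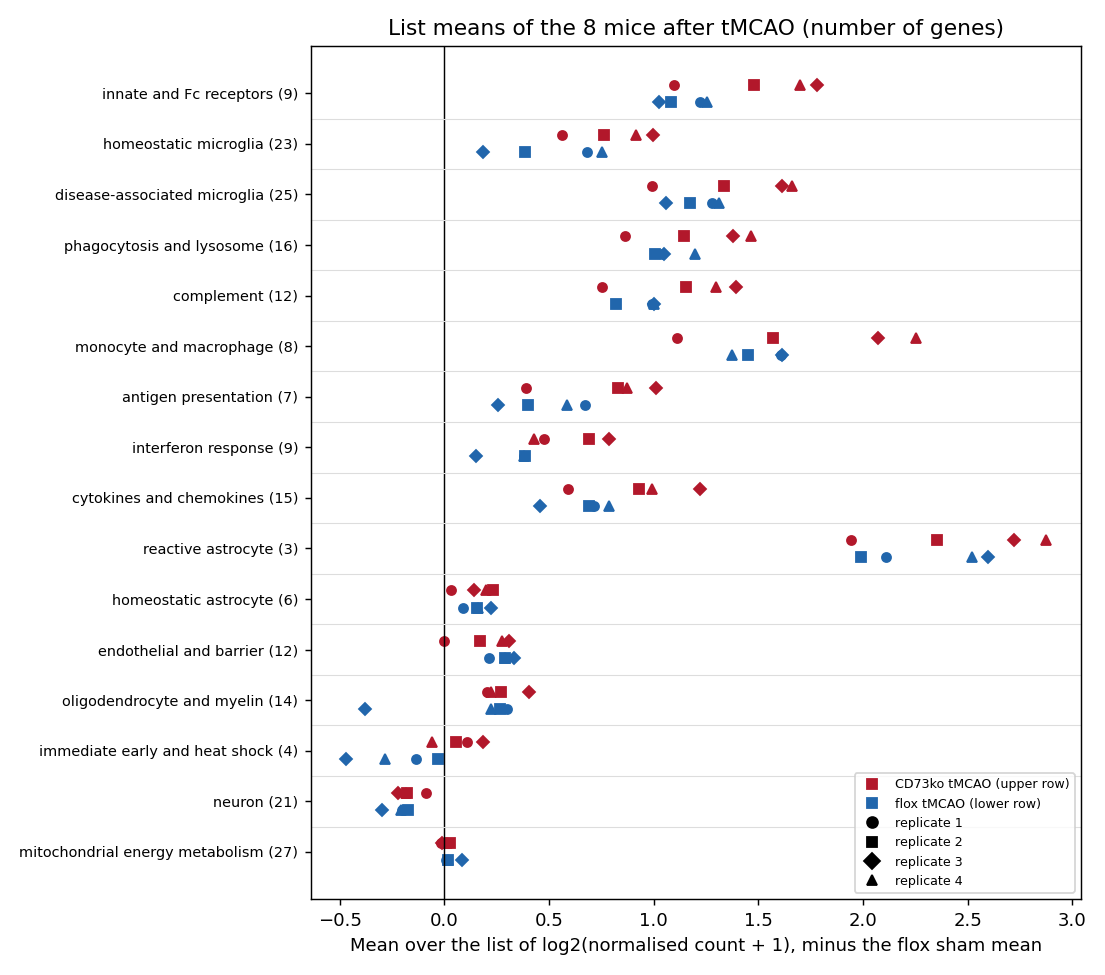
List means of the 8 tMCAO mice, each the mean over a list of log2(normalised count + 1) minus the mean of the CD73flox sham mice, with CD73ko mice in the upper and CD73floxed mice (flox in the legend) in the lower line of each list and the number of measured genes in brackets. In the homeostatic and disease-associated microglia, phagocytosis, complement, innate receptor and monocyte lists, CD73ko replicate 1 (circle) lies lowest and replicates 3 and 4 (diamond, triangle) highest of the CD73ko mice, and CD73floxed replicate 3 (diamond) lies far left of the rest in the myelin list (-0.38, against 0.22 to 0.30 in the other CD73floxed mice).

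Cytokine and chemokine genes had an estimate above 0 for 14 of 15 members, beside 59.7% of all genes, with a median of 0.36. Of the 15, 4 were not above background in 3 mice of any group. The median was 0.21 without CD73ko replicate 3 and 0.46 without CD73ko replicate 1. Cx3cl1, the neuronal chemokine fractalkine that signals to microglia, had 509, 517, 499 and 477 normalised counts in CD73ko mice, against 459, 452, 258 and 405 in CD73floxed mice and 633, 563, 619.7 and 598 in sham mice. The genotypes did not overlap after tMCAO, the CD73ko mice lay between the CD73floxed and the sham mice, and the log2 fold change between genotypes was 0.35 (95% interval 0.06 to 0.63). Without CD73floxed replicate 3, the lowest mouse, it was 0.19. Tgfb1, an anti-inflammatory and scar-forming cytokine, had 127, 135, 162 and 174 in CD73ko mice, against 135, 98.5, 111 and 122 in CD73floxed mice, with 0.36 (0.03 to 0.69). Ccl12 and Ccl2, chemokines that draw in monocytes, gave 0.38 (-0.04 to 0.79) and 0.30 (-0.39 to 0.98), and Ccl3, another inflammatory chemokine, 0.36 (-0.11 to 0.83). Of the inflammasome genes, Il18 was close to 0 and the rest were imprecise: Il18 gave -0.08 (-0.29 to 0.13), Il1b 0.46 (-0.27 to 1.18) and Nlrp3 -0.11 (-0.68 to 0.46).

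Several genes expressed in neurons were also higher in CD73ko mice by these estimates. Fos, an immediate early gene that neurons switch on when they fire, had 139.7, 149, 151 and 108 normalised counts in CD73ko mice, against 107, 113, 57.2 and 82.0 in CD73floxed mice and 119, 99.8, 133 and 101 in sham mice. One CD73ko mouse, replicate 4, fell inside the CD73floxed range, and the log2 fold change was 0.60 (95% interval 0.20 to 1.00). Egr1, an immediate early gene of the same class, had 1461, 1435, 1468 and 911 in CD73ko mice, against 1062, 1208, 696 and 833 in CD73floxed mice and 1529.9, 1618, 1667 and 1488 in sham mice. In CD73ko mice Egr1 stood between 1435 and 1468 in 3 mice and far lower in replicate 4, and the estimate was 0.47 (0.13 to 0.82).

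Adrb1, which encodes the beta-1 adrenergic receptor, had the smallest p among genes whose groups did not overlap, with 126, 115, 117 and 113 normalised counts in CD73ko mice, 94.0, 93.6, 95.02 and 86.2 in CD73floxed mice and 111, 151, 125 and 134 in sham mice. The log2 fold change between the genotypes after tMCAO was 0.35 (95% interval 0.11 to 0.59). Grin2a, an NMDA receptor subunit, had 196, 188, 169 and 197 in CD73ko mice, 158, 169, 161 and 148 in CD73floxed mice and 229.6, 241, 234 and 195 in sham mice, with 0.24 (0.04 to 0.43). Atp2b4, a calcium pump of the plasma membrane, had 681, 645, 658 and 742 in CD73ko mice, 626, 593, 528 and 626 in CD73floxed mice and 718, 702, 723 and 791 in sham mice, without overlap between the genotypes, and its log2 fold change was 0.20 (0.05 to 0.35). For Egr1, Adrb1, Grin2a, Atp2b4 and Cx3cl1, the CD73ko mean lay between the CD73floxed mean and the sham mean, as it did for 282 of all 757 genes, 14 of 21 neuron genes and 15 of 26 neurotransmitter receptor genes. For Fos it lay above both.

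The contrasts of each tMCAO group with the shams share the sham mice, and that of CD73floxed mice shares its tMCAO mice with the genotype comparison, so they are set side by side only. Against the shams, Egr1 had log2 fold changes of -0.26 in CD73ko tMCAO mice and -0.73 in CD73floxed tMCAO mice. For Adrb1 they were -0.14 and -0.49, for Grin2a -0.28 and -0.52, for Atp2b4 -0.10 and -0.30, and for Cx3cl1 -0.27 and -0.62, in the same order. In CD73floxed tMCAO mice all 5 fell against the shams at an adjusted p under 0.05 in edgeR, a level at which 60 of 757 genes (7.93%) were lower and 107 (14.1%) higher. In CD73ko tMCAO mice, where 50 (6.61%) were lower and 122 (16.1%) higher, only Grin2a of the 5 fell at that level. Such a pair of outcomes does not show that the genotypes differ, and the direct test of each gene is the one above, at an adjusted p of 0.747.

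Neuronal genes as a group lay where all genes lay. Of 21 neuron markers 13 had an estimate above 0, beside 59.7% of all genes. The median was 0.04 beside 0.03 over all genes, and Grin2a alone was at an unadjusted p under 0.05. All 21 intervals lay within 2-fold. Tbr1, which specifies excitatory neurons of the cortex, gave 0.17 (-0.02 to 0.37), Kcnv1, a modulatory potassium channel subunit, 0.19 (-0.14 to 0.52), and Gria1, an AMPA receptor subunit, -0.08 (-0.21 to 0.05). Of 26 neurotransmitter receptor genes 17 had an estimate above 0, with a median of 0.03. Jun, the partner of Fos in the AP-1 factor, gave 0.14 (-0.03 to 0.31), and the heat shock gene pair Hspa1a/b gave -0.02 (-0.36 to 0.31).

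**Figure D3:**
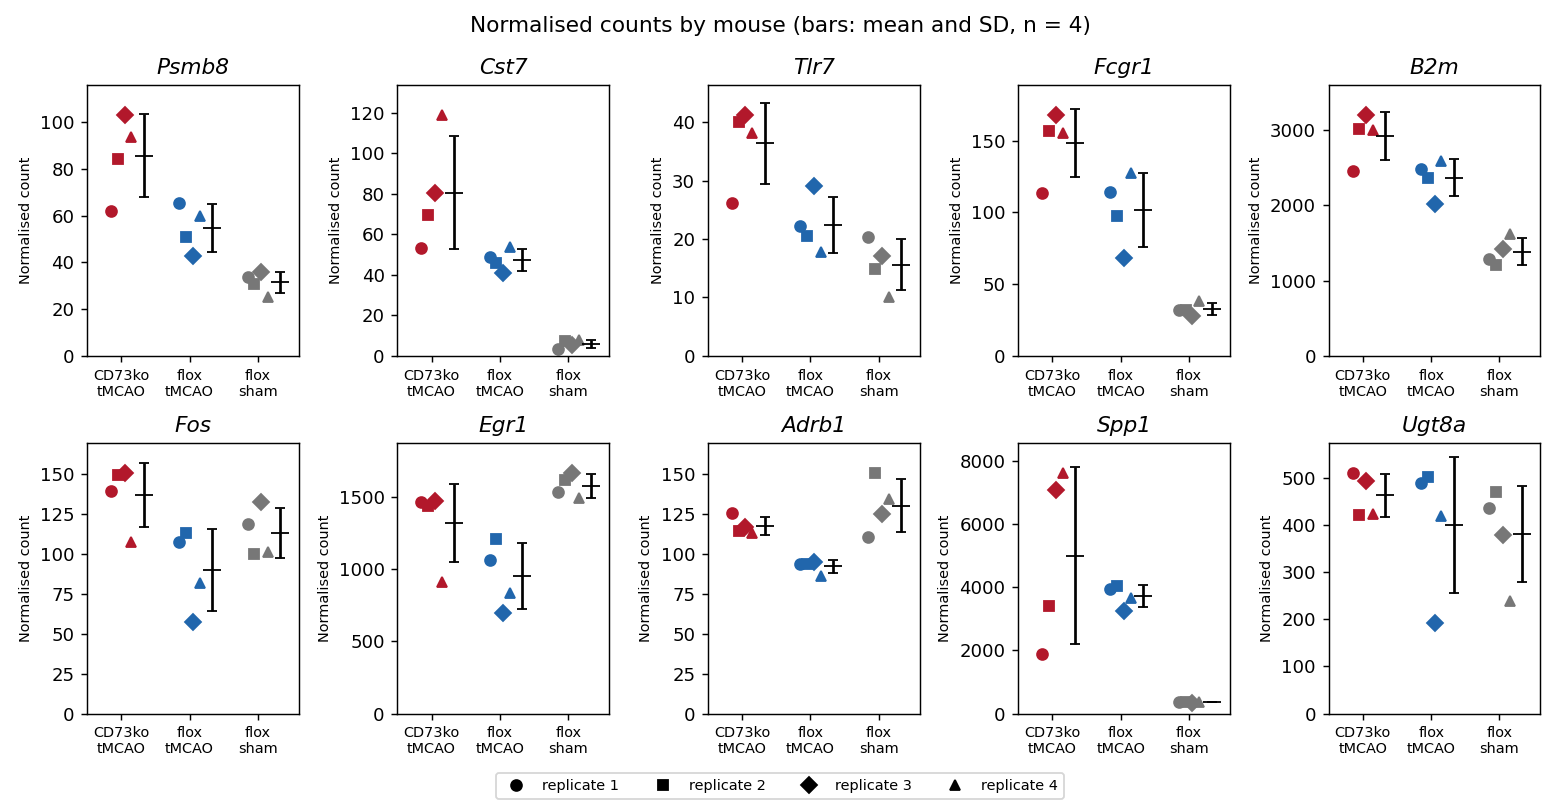
Normalised counts of 10 genes in each mouse, on axes that start at 0, with CD73ko tMCAO mice in red, CD73floxed tMCAO mice (flox) in blue and CD73flox sham mice in grey, marker shape for the replicate number, and the mean ± SD of the 4 mice as a bar. CD73ko replicate 1 overlaps the CD73floxed mice for Psmb8, Tlr7, Fcgr1 and B2m, the groups do not overlap for Adrb1, and CD73floxed replicate 3 stands alone among the tMCAO mice for Ugt8a.

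Astrocyte lists differed in direction: 3 of 3 pan-reactive markers and 2 of 6 homeostatic genes had an estimate above 0, beside 59.7% of all genes. Of the pan-reactive markers, Gfap, the astrocytic intermediate filament, had 3054, 4293, 4721 and 4957 normalised counts in CD73ko mice, against 3492, 3013, 4388 and 4403 in CD73floxed mice, with 0.15 (-0.18 to 0.49). Serpina3n, a secreted protease inhibitor, gave 0.38 (-0.19 to 0.95), and Vim, the vimentin gene, 0.04 (-0.31 to 0.38). Among homeostatic genes, Aqp4, the water channel of astrocytic end-feet, had 981, 1118, 1088 and 911 in CD73ko mice, against 905, 881, 716 and 901 in CD73floxed mice, without overlap, and a log2 fold change of 0.27 (95% interval 0.03 to 0.50). Glul, the gene of glutamine synthetase, had 8236, 8647, 8241 and 10095 in CD73ko mice, against 9172, 9463, 13724 and 9361 in CD73floxed mice. The difference in Glul rested on CD73floxed replicate 3, since the other 3 lay within the CD73ko range, and the estimate of -0.24 (-0.49 to -0.0026) became -0.08 without that mouse. Slc1a3, a glutamate transporter, gave -0.08 (-0.27 to 0.11), and Sox9, an astrocyte transcription factor, 0.13 (-0.11 to 0.37).

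The A1 and A2 lists, named for neurotoxic and protective reactive astrocytes, share genes with immune lists, among them Psmb8, H2-T23 and Iigp1 in A1 and Cd14 in A2. In A1, 8 of 10 members had an estimate above 0 (median 0.17), and in A2 11 of 12 did (median 0.12), beside 59.7% of all genes. Ptx3, a pentraxin secreted in inflammation, had 22.5, 53.7, 49.7 and 46.4 normalised counts in CD73ko mice, against 28.4, 24.4, 18.4 and 38.9 in CD73floxed mice, with 0.65 (0.06 to 1.23). Sphk1, a kinase that makes sphingosine-1-phosphate, gave 0.53 (-0.07 to 1.13), Ptgs2, the inducible cyclooxygenase, 0.26 (-0.18 to 0.70), and Cd14, a co-receptor for bacterial lipid, 0.22 (-0.21 to 0.64). With single mice left out the A2 median ran from 0.05 without CD73floxed replicate 2 to 0.22 without CD73floxed replicate 3. The A1 median ran from 0.10 to 0.21 without the same mice.

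Oligodendrocyte and myelin genes had an estimate above 0 for 12 of 14 members, beside 59.7% of all genes. Their median was 0.19, and this rested on 1 mouse. Mag, a surface glycoprotein of the innermost myelin layer, had 369, 449.5, 508 and 428 normalised counts in CD73ko mice, against 409, 365, 245 and 406 in CD73floxed mice. Replicate 3 of the CD73floxed mice stood below the other 7 tMCAO mice. It was the lowest CD73floxed mouse for 13 of the 14 genes, against 280 of all 757, and without it the list median was 0.02. Mag and Mog, a glycoprotein of the outer myelin surface, were at an unadjusted p under 0.05 with 0.30 (0.0014 to 0.60) and 0.17 (0.00053 to 0.34), and were 0.16 and 0.10 without that mouse. Over all genes 5.94% were higher at that p. Cnp, a myelin enzyme, did not overlap between the genotypes and gave 0.13 (-0.0038 to 0.27).

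Mbp, the gene of myelin basic protein, had an estimate below 0, with 2685, 3001, 2875 and 2652 normalised counts in CD73ko mice, against 2939.7, 2939, 3071 and 3209.9 in CD73floxed mice. Only CD73ko replicate 2 entered the CD73floxed range, and the log2 fold change was -0.12 (95% interval -0.24 to 0.002). Among progenitor genes, Gpr17, a receptor of maturing oligodendrocytes, gave 0.34 (-0.09 to 0.77), Cspg4, the NG2 proteoglycan also made by pericytes, 0.22 (-0.05 to 0.49), Ptprz1, a receptor phosphatase, -0.05 (-0.17 to 0.06), and Bcas1, a marker of early myelinating cells, -0.05 (-0.25 to 0.16).

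Endothelial and barrier genes were the cell type list with the lowest median, -0.11. Beside 59.7% of all genes, 5 of its 12 members had an estimate above 0. None was at an unadjusted p under 0.05. Nostrin, which encodes a trafficking protein of endothelial nitric oxide synthase, had 28.1, 26.3, 30.0 and 29.7 normalised counts in CD73ko mice, against 31.9, 35.1, 48.5 and 36.8 in CD73floxed mice and 33.7, 17.7, 21.6 and 17.7 in sham mice. The genotypes did not overlap, and the log2 fold change was -0.41 (95% interval -0.85 to 0.03). Abcb1a, the P-glycoprotein efflux pump of the blood-brain barrier, had 239, 288, 286 and 253 in CD73ko mice, against 271, 281, 371 and 342 in CD73floxed mice, with -0.25 (-0.49 to 0.0012). Esam, an endothelial adhesion molecule, gave -0.19 (-0.45 to 0.08), and Tjp1, the tight junction protein ZO-1, 0.10 (-0.05 to 0.25). Per mouse, the list mean was -0.0017, 0.17, 0.31 and 0.28 in CD73ko mice, against 0.21, 0.29, 0.33 and 0.29 in CD73floxed mice. CD73ko replicate 1 was the lowest of the 8, and the median was -0.06 without it and -0.15 without CD73ko replicate 4.

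The genes with the smallest p among those lower in CD73ko mice had small estimates. Ppp3r1, the regulatory subunit of calcineurin, had 5119, 4831, 4453 and 4956 normalised counts in CD73ko mice, against 5103, 5102, 5831 and 5135 in CD73floxed mice, and was with Glul the other gene at an unadjusted p under 0.05, at -0.13 (95% interval -0.26 to -0.00015). Grk3, a kinase of activated receptors, gave -0.19 (-0.39 to 0.01), and Erlec1, a lectin of the endoplasmic reticulum, -0.17 (-0.36 to 0.01). Prkab1, a subunit of the energy sensor AMPK, gave -0.19 (-0.41 to 0.03), Aplp2, a relative of the amyloid precursor, -0.09 (-0.20 to 0.02), Acsl3, which activates fatty acids, -0.16 (-0.36 to 0.03), and Skp1a, a ubiquitin ligase subunit, -0.10 (-0.23 to 0.02). CD73floxed replicate 3 had the highest count of the 8 for Glul, Ppp3r1, Abcb1a, Grk3, Erlec1, Prkab1, Aplp2, Acsl3 and Skp1a.

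Of the lower genes whose groups did not overlap, Trim35, a ubiquitin ligase of the TRIM family, had 143, 153, 160.2 and 159 normalised counts in CD73ko mice, against 170.3, 169, 178 and 164 in CD73floxed mice. Crot, which handles fatty acids in peroxisomes, had 220.3, 246, 231 and 236 in CD73ko mice, against 269.7, 253, 255 and 265 in CD73floxed mice. In both the gap between the groups was small, and the log2 fold changes were -0.15 (-0.32 to 0.03) and -0.16 (-0.38 to 0.06). Map2k4, a kinase of the stress pathway to JNK, gave -0.09 (-0.26 to 0.08). With Nostrin these are 4 of the 8 genes.

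Genes of energy metabolism and protein turnover were held within narrow bounds. Against 59.7% of all genes, 5 of 27 genes of mitochondrial energy metabolism had an estimate above 0 (median -0.05). All 27 intervals lay within 2-fold. Ndufb5, a subunit of respiratory complex I, had the largest estimate among them, with 627, 615, 590.4 and 589 normalised counts in CD73ko mice, against 559, 519, 447 and 548 in CD73floxed mice, without overlap, at 0.22 (0.04 to 0.41). Slc25a4, the ADP/ATP carrier of muscle and brain, gave -0.12 (-0.26 to 0.03), Immt, which shapes the cristae, -0.13 (-0.30 to 0.05), and Pcca, a propionyl-CoA carboxylase subunit, -0.11 (-0.26 to 0.04). Of 25 proteasome and ubiquitin genes 9 had an estimate above 0, with Uchl1, a neuronal deubiquitinase, at 0.22 (0.03 to 0.41) without overlap. Of 14 calcium pumps and channels 6 did, beside Atp2b4 with Itpr1, a calcium release channel, at 0.08 (-0.03 to 0.18), Atp2b2, another plasma membrane pump, at 0.10 (-0.04 to 0.24) and the calmodulin gene Calm3 at -0.07 (-0.18 to 0.03).

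Gsn, the gene of gelsolin, an actin-severing protein, belonged to none of these lists and was among the 12 higher genes with the smallest p, with 661, 694, 719.7 and 743 normalised counts in CD73ko mice, against 629, 606, 587 and 661 in CD73floxed mice. CD73ko replicate 1 lay just below the highest CD73floxed mouse, the other 3 lay above it, and the log2 fold change was 0.18 (95% interval 0.05 to 0.32). Kctd12, an auxiliary subunit of GABA-B receptors, had 36.6, 28.4, 33.7 and 41.8 in CD73ko mice, against 28.4, 20.5, 24.2 and 28.4 in CD73floxed mice, at 0.47 (0.08 to 0.86). The genotypes did not overlap for Kctd12, but the lowest CD73ko mouse and the highest CD73floxed mouse were equal to the precision shown.

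The spread between mice was of similar size in both genotypes over the panel and differed for some gene groups. Over all genes the median SD of log2(normalised count + 1) between 4 mice was 0.102 in CD73ko tMCAO mice, 0.129 in CD73floxed tMCAO mice and 0.167 in sham mice. The shams include replicate 4, with 293589 total counts. Its median absolute log2 distance to the mean of the other shams was 0.235, against 0.105 to 0.132 for the other shams. The part of that library in the sham SD was not tested. The SD was larger in CD73ko than in CD73floxed tMCAO mice for 333 of 757 genes (44.0%). Among disease-associated microglia genes it was larger in CD73ko mice for 21 of 25, with median SDs of 0.32 in CD73ko and 0.16 in CD73floxed mice. Among homeostatic microglia genes it was larger in CD73ko mice for 5 of 23, and among myelin genes for 2 of 14. Without CD73floxed replicate 3 the SD was larger in CD73ko mice for 452 of the 757 genes. No test of the spread was made.

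The widest genes in CD73ko mice, among those above background in all 8 tMCAO mice, were Spp1, Lyz2, Ccl2, Ms4a4a, Gpnmb and Tgm1. Spp1 had an SD of 0.96 in CD73ko and 0.14 in CD73floxed mice, and Gpnmb, a glycoprotein of lipid-laden phagocytes with 172, 328, 511 and 681 normalised counts in CD73ko mice, against 404, 355, 213 and 367 in CD73floxed mice, 0.86 and 0.41. Ms4a4a is a membrane protein of macrophages and Tgm1 a transglutaminase of the A2 list. Ccl2 had 30.9, 81.1, 128 and 93.8 in CD73ko mice, against 86.0, 51.7, 61.1 and 72.5 in CD73floxed mice, whereas Ms4a4a had 22.5, 45.3, 53.4 and 100.3 in CD73ko mice, against 55.9, 38.0, 113 and 28.4 in CD73floxed mice. Tgm1 had 49.7, 81.1, 125 and 155 in CD73ko mice, against 69.2, 73.1, 118 and 117 in CD73floxed mice. CD73ko replicate 1 was the lowest of the CD73ko mice for all 6 genes, against 278 of all 757, and replicate 3 or 4 the highest. Lgals3, the galectin-3 gene, chosen after its values were seen, had 187, 323, 499 and 544 in CD73ko mice, against 379.7, 334, 316 and 332 in CD73floxed mice.

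Over all 757 genes, CD73floxed replicate 3 held the lowest count of its group for 280 and the highest for 238. Among the 6 widest genes in CD73floxed mice, which were chosen for their spread, it held the lowest or the highest CD73floxed count of each. Ms4a4a is among them, and Fbln5, an elastic fibre protein, had 54.4, 59.0, 47.8 and 56.7 normalised counts in CD73ko mice, against 48.8, 47.8, 156 and 45.2 in CD73floxed mice. Its log2 fold change of -0.45 (-1.17 to 0.27) became 0.20 without that mouse. Cd74, Lair1, an inhibitory collagen receptor of leukocytes, Aif1, the microglial gene of Iba1, and Ugt8a, a myelin lipid enzyme, are the others. Aif1 had 199.6, 269.5, 307 and 306 in CD73ko mice, against 261, 207, 109 and 318 in CD73floxed mice, and Ugt8a 512, 422, 495 and 424 in CD73ko mice, against 491, 502, 192 and 419 in CD73floxed mice. In both, CD73floxed replicate 3 had the lowest count of the 8 and the other 3 CD73floxed mice lay among or near the CD73ko mice.

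**Figure D4:**
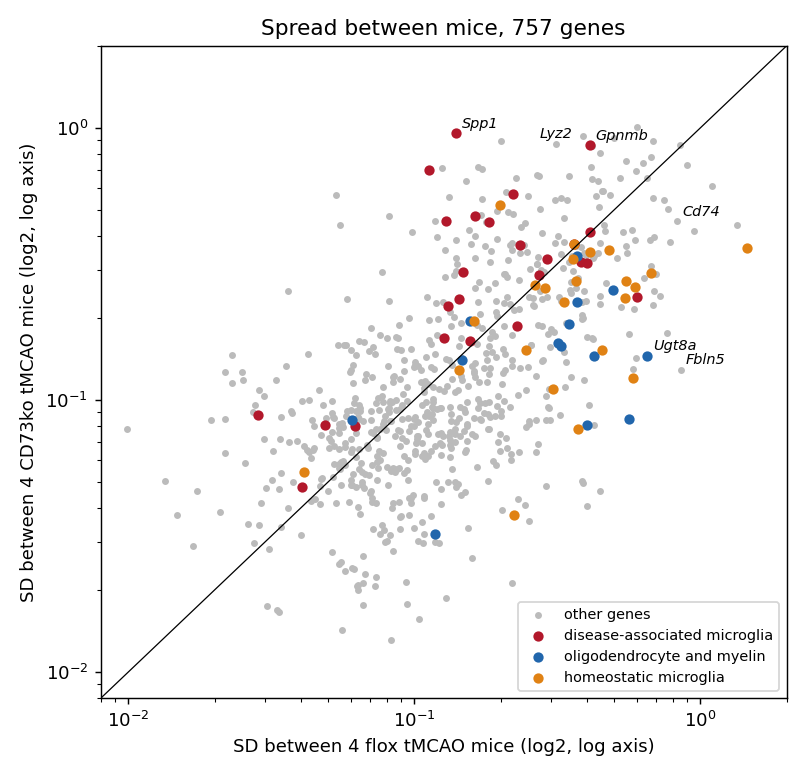
The SD between the 4 CD73ko tMCAO mice against the SD between the 4 CD73floxed tMCAO mice (flox on the axis) of log2(normalised count + 1), on log axes, for 757 genes, with a line where both are equal. Of the 25 disease-associated microglia genes (red, or orange where a gene is also in the homeostatic list), 21 lie above the line, while 18 of 23 homeostatic microglia genes (orange) and 12 of 14 myelin genes (blue) do not.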

How the data were processed

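The raw counts analysed are those deposited by the authors in the series value table, whole numbers for 770 genes and 14 control probes in each of 12 mice. Per the labels' protocols, brains were homogenised in TRIzol; counting software and any background step are not given in the sources used here. The authors also deposited 2 tables of normalised values, in which 11 sample names match no label; they were not used, except that the 13 genes absent from their header were taken as the panel's housekeeping genes. Groups follow the group characteristic of the labels.

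Counts were scaled by TMM and fitted in edgeR 4.0.16 under R 4.3.3, with 1 coefficient for each of the 3 groups and all 12 mice. Genotypes were compared by its quasi-likelihood F test, and p-values of the 757 endogenous genes were adjusted after Benjamini and Hochberg at 0.05. Normalised counts are scaled to the mean effective library size. Intervals of 95% use 14.4 total degrees of freedom. A count was above background past the mean plus 2 SD of the 8 negative probes, and a gene when at least 3 of 4 mice of a group were. Steps were tested on simulated data. Total counts per library, given above, and the number of mice set the precision.

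The members, 33 gene lists and tests were chosen with earlier results of these data known, and some lists after the gene names of the panel were seen. Some lists share genes, so their counts and means are not independent. Named were the 12 higher and 12 lower genes of smallest p, up to 4 members of smallest p per list, all purine genes, the 6 widest genes of each genotype, and the 5 higher and 5 lower of largest change among genes whose groups do not overlap; some of these genes are not reported here. Gene symbols of 752 of 757 genes matched RefSeq on GRCm38.p6. Alternatives were other scalings, DESeq2 1.42.0, limma 3.58.1, filters on low counts, the 8 tMCAO mice alone, a replicate block and each mouse left out.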

Additional observations from a re-analysis of the deposited data

Results flagged for a closer look

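Of 330 groups of 4 mice examined, over named genes and list means, 18 (5.45%) had a mouse whose gap to the nearest of the other 3 was large against the range of the group; chance gives about 1 in 20. Of these 18, 9 were at CD73floxed tMCAO replicate 3.

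In CD73ko tMCAO mice, Egr1 was 911 normalised counts in replicate 4, against 1435 to 1468 in the other 3. Sphk1 was 25.3 in replicate 2 and Hmox1, the haem oxygenase gene, 76.9 in replicate 1. The list mean (log2, minus the sham mean) was 0.52 in replicate 3 for purine signalling, and in replicate 1 it was 0.51 for A1 astrocyte genes and 0.0209 for proteasome and ubiquitin genes.

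In CD73floxed tMCAO replicate 3, Glul was 13724 normalised counts, Ppp3r1 5831, Acsl3 1901 and Fbln5 156, each above the other 3 mice. Aqp4 was 716 and Bcas1 1068, both below them. The list means of that mouse were -0.38 for oligodendrocyte and myelin genes, 0.15 for interferon response and 0.0820 for mitochondrial energy metabolism. In the other CD73floxed mice, Adrb1 was 86.2 in replicate 4, Entpd1 99.5 in replicate 2 and the complement list mean 0.82 in replicate 2. The part of dissection, infarct size or RNA quality in these values was not tested.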

How the results depend on the processing

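No gene was called between the genotypes under any of the 22 alternatives run. At an unadjusted p under 0.05, 45 genes were higher and 2 lower in CD73ko mice; these counts were 35 and 6 with DESeq2 size factors, 32 and 7 centred on the library median, 28 and 3 scaled to housekeeping genes, 29 and 10 by DESeq2's test, 36 and 1 by limma, 28 and 9 among the 712 genes above background, 27 and 5 among the 612 with a mean count of at least 50, and 29 and 18 from the 8 tMCAO mice alone. With 1 mouse left out at a time, 26 to 72 genes were higher and 1 to 26 lower. Groups did not overlap for 29 genes in all mice and for 18 scaled to housekeeping genes. That count was 24 to 29 without a sham mouse and 39 to 88 without a tMCAO mouse. With a tMCAO mouse left out, 3 mice face 4 and separate more easily, so 39 to 88 cannot be set against 29. The highest counts came without CD73ko replicate 1 (72 higher, 88 without overlap, smallest adjusted p 0.107 in edgeR). For lower genes the highest count came without CD73flox sham replicate 4 (26). Without CD73floxed tMCAO replicate 3, 29 were higher and the smallest adjusted p was 0.994. The number of genes with the larger SD in CD73ko mice ran from 255 to 452, and of intervals within 2-fold from 679 to 703. The cause was not tested.

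With the replicate number as a block among the 8 tMCAO mice, 30 genes were higher and 8 lower, none called. The deviations of same-numbered mice had correlations of -0.04, 0.09, -0.17 and 0.19, and those of differently numbered mice ran from -0.25 to 0.18. These values cannot decide whether the numbers pair the mice, since a pairing need not leave a shared deviation.

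Of 140 named genes, 16 changed sign under some alternative. Entpd2 was -0.0038 centred on the library median, -0.0042 among genes above background, -0.00015 in the 8 mice alone and -0.00204 with the block, where Vim was -0.012. Leaving out CD73flox sham replicate 4 and CD73floxed tMCAO replicate 3 together, an alternative chosen after seeing the data, gave 40 genes higher and 3 lower, with Adora1 0.073, P2rx7 -0.055, Ms4a4a 0.43, Fbln5 0.20, Cd74 -0.11, Ugt8a -0.024, Hspa1a/b 0.00961 and Ccnb1 -0.020. With 1 mouse left out, the log2 fold change ran from -0.035 to 0.085 for Entpd1, -0.024 to 0.091 for Entpd2, -0.080 to 0.073 for Adora1, -0.055 to 0.14 for P2rx7, -0.0075 to 0.21 for P2ry14, -0.050 to 0.51 for Lyz2, -0.55 to 0.43 for Ms4a4a, -0.14 to 0.34 for Tgm1, -0.64 to 0.20 for Fbln5, -0.11 to 0.42 for Cd74, -0.023 to 0.32 for Ugt8a, -0.26 to 0.043 for Nlrp3, -0.13 to 0.15 for Vim, -0.092 to 0.074 for Hspa1a/b, -0.036 to 0.25 for Ccnb1 and -0.0048 to 0.16 for Lpl. Of 462 list medians 456 moved by less than the spread between mice, and the other 6 were of the proteasome list. With 1 mouse left out, 6 of 29 list medians nonetheless changed sign: they ran from -0.12 to 0.043 for NF-kB and inflammasome, -0.10 to 0.021 for homeostatic astrocyte, -0.045 to 0.071 for oligodendrocyte progenitor, -0.018 to 0.25 for lymphocyte and NK cell, -0.065 to 0.026 for calcium pumps and channels and -0.014 to 0.055 for neurotransmitter receptors.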

Other observations

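Lymphocyte genes were largely at background in these brains: 10 of 27 markers of T, B and NK cells were above it in 3 mice of some group. Of the 27, 18 had an estimate above 0, beside 59.7% of all genes (median 0.18, and -0.02 without CD73ko replicate 3). Their summed level was 344 to 516 normalised counts in CD73ko mice, against 287 to 428 in CD73floxed tMCAO mice. In CD73flox sham mice it was 388 to 499.7. Lag3, an inhibitory receptor of T cells that microglia also express, had 34.7, 36.8, 43.1 and 40.9 normalised counts in CD73ko mice, against 31.0, 31.2, 20.4 and 35.7 in CD73floxed mice, with a log2 fold change of 0.40 (95% interval 0.03 to 0.77). Ptprc, the pan-leukocyte gene of CD45, gave 0.37 (-0.22 to 0.96), while Cd8a and Cd8b1, the chains of the CD8 co-receptor, gave 0.55 (-0.15 to 1.26) and -0.58 (-1.36 to 0.20) from counts at background. Mast cell genes were as low: Tpsb2 and Tpsab1, mast cell tryptases, gave 1.12 (0.05 to 2.19) and 0.52 (-0.48 to 1.52), Cpa3, their carboxypeptidase, -0.73 (-1.60 to 0.14), and Hdc, the enzyme that makes histamine, 0.27 (-0.38 to 0.92). Tpsb2 held the highest and Cpa3 the lowest estimate of the panel, and neither was above background in 3 mice of a genotype.

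Myeloid regulators had an estimate above 0 for 18 of 19 members, beside 59.7% of all genes, and none was at an unadjusted p under 0.05. Their median was 0.20, and it was 0.07 without CD73ko replicate 4 and 0.30 without CD73ko replicate 1. Lair1 had 25.3, 44.2, 47.8 and 39.0 normalised counts in CD73ko mice, against 29.3, 19.5, 12.6 and 39.9 in CD73floxed mice, and gave 0.63 (-0.01 to 1.26). Lrrc25, a leucine-rich repeat protein of myeloid cells, gave 0.51 (-0.09 to 1.12), Cd200r1, the receptor of the restraining ligand CD200, 0.71 (-0.01 to 1.43), and Cysltr1, a leukotriene receptor, 0.35 (-0.12 to 0.81). Among proliferation genes Mki67, a marker of dividing cells, had 52.5, 56.8, 105 and 95.7 in CD73ko mice, against 78.1, 55.6, 53.3 and 73.6 in CD73floxed mice, and Ccnb1, a cyclin of mitosis, gave 0.11 (-0.38 to 0.59). Hmox1, an enzyme that breaks down haem, gave 0.44 (-0.06 to 0.95), while the metabolic genes Hk1, Pdha1 and Pgk1 gave -0.07 (-0.21 to 0.07), -0.05 (-0.17 to 0.08) and -0.06 (-0.21 to 0.09). Bax, a promoter of apoptosis, gave 0.06 (-0.16 to 0.28), and of lipid genes Fabp5 gave 0.15 (-0.07 to 0.38), Abca1 -0.12 (-0.36 to 0.12), Apoe 0.05 (-0.14 to 0.24) and Lpl 0.08 (-0.25 to 0.41). GABA and glutamate receptor genes Gabra4 and Grm2 gave 0.20 (-0.02 to 0.43) and 0.19 (-0.03 to 0.41), and the proteasome and ligase genes Psmc2 and Cul1 -0.08 (-0.20 to 0.04) and -0.08 (-0.21 to 0.06).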
